A study of Lathyrus oleraceus with 4 samples.

Results

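Seeds of the grain pea Zhongwan 6 were set against seeds of the vegetable pea Zhewan 1, both taken 25 days after pollination (DAP), by RNA-Seq of a single library per cultivar. The unigenes described are the assembled transcript sequences with at least 50 reads in either of these libraries, and they number 32351 of the 77269 unigenes in the table (41.9%). Both cultivars were grown in the same field, no treatment is named, and seeds of many plants were pooled for each sample. Although 3 biological replicates were collected, the table has 1 column per cultivar and stage. The sources used here do not say how the replicates entered a library, so no difference given here is checked by replicate libraries. The study also ran qRT-PCR on separately collected seeds, with 3 biological replicates, for a selection of unigenes. Those qRT-PCR values were not used here. Libraries of the same cultivars at 10 DAP were used only to set the 25 DAP values beside an earlier stage. Because whole seeds were used, fewer cells of a type and less RNA per cell cannot be told apart.

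A pea seed first divides and enlarges its embryo, and the cotyledons then fill with starch, storage globulins and albumins. Toward the end of filling the embryo loses its chlorophyll, makes late embryogenesis abundant (LEA) proteins and coats its oil bodies with oleosin and caleosin before it dries. Vegetable peas are picked while still filling and sweet, whereas grain peas are left to ripen and dry.

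Zhongwan 6 had 70912839 counted reads and Zhewan 1 had 55819963. The members held 99.6% of the reads in Zhongwan 6 and 99.4% in Zhewan 1. Both libraries reached 50 reads for 27637 members, Zhongwan 6 alone for 2235 and Zhewan 1 alone for 2479. Just inside the minimum were 136 unigenes whose higher library had exactly 50 reads, and just outside it were 130 whose higher library had 49. On a unigene of 1 kb, 50 reads were 0.705 RPKM in Zhongwan 6 against 0.896 RPKM in Zhewan 1. RPKM, the unit of all levels below, is the read count divided by unigene length and by the counted total of the library.

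On RPKM as deposited most members lay lower in Zhongwan 6, whereas the most abundant unigenes went both ways with a median above 0. On the log2 scale the ratio of Zhongwan 6 over Zhewan 1 had a median of -0.39 over the 27637 members with 50 reads in both, and 90% of them lay between -1.56 and 1.01. RPKM is relative to the counted total of a library, so a few abundant unigenes can move all others. A second scaling was therefore used throughout, in which this median ratio is set to 1. Every log2 ratio below is on RPKM as deposited unless median-ratio scaling is named, and that scaling adds 0.39 to it. Intervals are 95% exact Clopper-Pearson intervals of the ratio and cover counting error only. Counted reads exceed the clean reads the study states, so some reads were counted on more than 1 sequence, and the intervals and FDR, which take them as separate, are too narrow even for that.

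**Figure D1:**
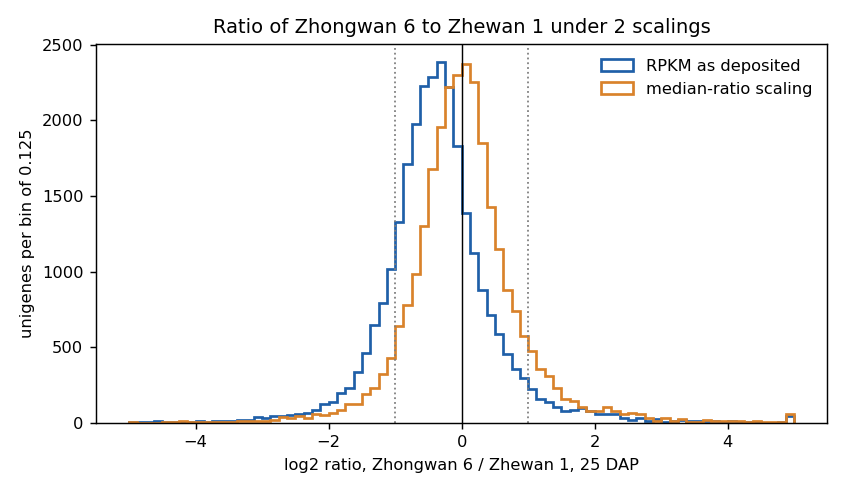
Number of unigenes (y axis) by log2 ratio of Zhongwan 6 to Zhewan 1 at 25 DAP (x axis, in equal bins) for the 27637 members with at least 50 reads in both libraries, as deposited (blue) and after median-ratio scaling (orange). Dotted lines mark 2-fold. The deposited ratios centre on -0.39 and the scaled ratios on 0. Values beyond -5 and 5 are drawn at those ends.

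A unigene was called where the ratio was at least 2-fold and its reads gave a false discovery rate (FDR) of 0.001 or less by Fisher's exact test, two-sided. The test compares 2 libraries and not the cultivars. Of the members, 9402 (29.1%) were called on RPKM, against 17.2% of all 72654 unigenes with a read at 25 DAP. They were 2846 higher (8.8%) and 6556 lower (20.3%) in Zhongwan 6, where 4.93% of all unigenes were called higher and 12.3% lower. With median-ratio scaling 7871 members (24.3%) were called, 4234 higher (13.1%) and 3637 lower (11.2%), against 14.2% of all unigenes (7.41% higher and 6.83% lower). The direction of the majority therefore depended on the scaling, with 30.3% of the calls higher on RPKM and 53.8% after median-ratio scaling. All 2846 members called higher on RPKM were also called higher after scaling, and 3637 were called lower under both. These 6483 unigenes with the same call under both scalings are the ones termed higher or lower below. At least 4-fold differences were found in 1501 called members that were higher and 1972 that were lower on RPKM, and in 1915 and 1507 after median-ratio scaling. At least 16-fold, they were 733 higher and 713 lower on RPKM, and 822 and 662 after scaling.

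The members higher in Zhongwan 6 held 37.4% of the reads in Zhongwan 6 and 6.63% in Zhewan 1. Those lower under both scalings held 4.58% of the reads in Zhongwan 6 and 16.5% in Zhewan 1. The 76 members with a mean RPKM of at least 1000 had a median log2 ratio of 0.50. They held 48.9% of the reads in Zhongwan 6 and 40.4% in Zhewan 1. On RPKM 27 of the 76 were called higher and 25 lower, and after median-ratio scaling 35 were called higher and 16 lower. The 623 members of 100 to 1000 RPKM had a median of -0.64, and the 3 bands below 100 RPKM had medians between -0.40 and -0.37. The most abundant band was thus the one with a median above 0.

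**Figure D2:**
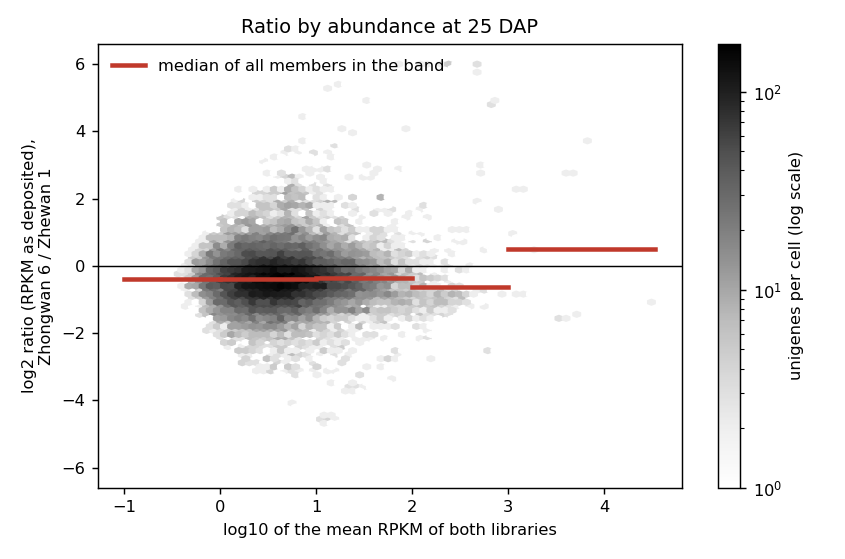
Log2 ratio of Zhongwan 6 to Zhewan 1 (y axis, RPKM as deposited, drawn at -6 or 6 where beyond) against the log10 of the mean RPKM of both libraries (x axis), for members with at least 50 reads in both, with the number of unigenes per cell in grey. Red lines are the medians of all members in each band. Only the band above 1000 RPKM has a median above 0 (0.50).

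The 10 most abundant unigenes of each library made up 15 sequences from 11 Trinity components, a component being a group of sequences assembled from overlapping reads. None of them has an annotation in the tables used here, so they are given by identifier. Of the 15, 6 were higher and 3 lower in Zhongwan 6. The unigene with the most reads in Zhongwan 6, comp40218_c0_seq4 (839 bp), had 42768 RPKM in Zhongwan 6 against 10234 RPKM in Zhewan 1, a ratio of 4.18 (interval 4.17 to 4.19). The component comp40974_c0 differed more. Its longest sequence, comp40974_c0_seq9 (1882 bp), had 13391 RPKM in Zhongwan 6 against 999.3 RPKM in Zhewan 1, a 13.4-fold ratio (13.3 to 13.5). All 5 of its members were higher in Zhongwan 6, with log2 ratios from 3.62 to 3.95. Together the 5 had 4418445 reads in Zhongwan 6 and 260350 in Zhewan 1.

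The component comp37913_c0 behaved alike in all 4 members, whose log2 ratios ran from 2.71 to 2.72. Its sequence comp37913_c0_seq10 (2749 bp) had 7890 RPKM in Zhongwan 6 against 1203 RPKM in Zhewan 1. In comp41085_c1_seq1 (4593 bp) the RPKM was 7694 in Zhongwan 6 against 2192 in Zhewan 1, or 3.51-fold (3.50 to 3.52). Sequences of a component share counted reads, and the near equal ratios within these components are not separate observations.

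On the Zhewan 1 side, comp39373_c0_seq5 (1585 bp) took 3.49% of the reads in Zhongwan 6 and 7.26% in Zhewan 1. Its log2 ratio of -1.06 passed the 2-fold threshold on RPKM and not after median-ratio scaling. The abundant unigenes that were lower in Zhongwan 6 under both were comp38817_c0_seq2 and a pair from comp40051_c0. The first (945 bp) had 7439 RPKM in Zhongwan 6 against 19713 RPKM in Zhewan 1, and the larger of the pair, comp40051_c0_seq4 (1770 bp), had 1838 and 5666 in the same order of libraries. Under TMM, another scaling, comp38817_c0_seq2 had a log2 ratio of -0.97 and was not called. Another 3 were within 2-fold under both scalings, namely comp38444_c3_seq4 (log2 ratio 0.46), comp40800_c2_seq2 (0.29) and comp41077_c0_seq2 (-0.48).

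**Figure D3:**
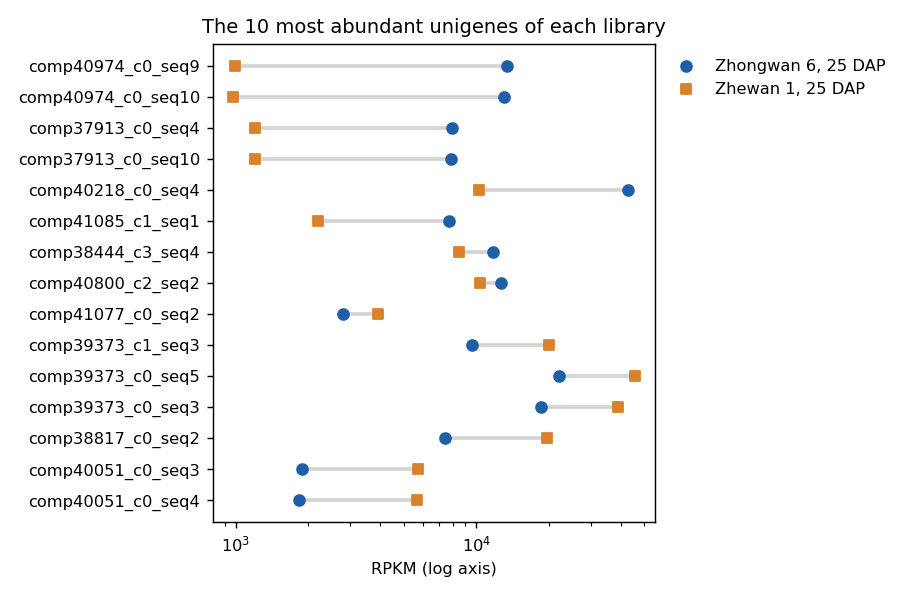
RPKM on a log axis of the 15 unigenes among the 10 most abundant of either 25 DAP library, with Zhongwan 6 as blue circles and Zhewan 1 as orange squares, 1 library each, ordered by ratio. The upper 8 lie to the right in Zhongwan 6, led by the sequences of comp40974_c0, and the lower 7 lie to the right in Zhewan 1.

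Names were available for 445 members, from the part of the study's Medicago truncatula annotation that could be read here, and for the 29 unigenes of the study's qRT-PCR panels. Most rows of that annotation were cut, so each annotation list below can hold only some of the unigenes of its kind. The annotated members need not represent the assembly. Their median log2 ratio was -0.50, with 38 higher and 121 lower on RPKM and 53 higher and 76 lower after median-ratio scaling. The median of all members was -0.39. Of all members 8.8% were higher and 20.3% lower on RPKM, and 13.1% were higher and 11.2% lower after median-ratio scaling.

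**Figure D4:**
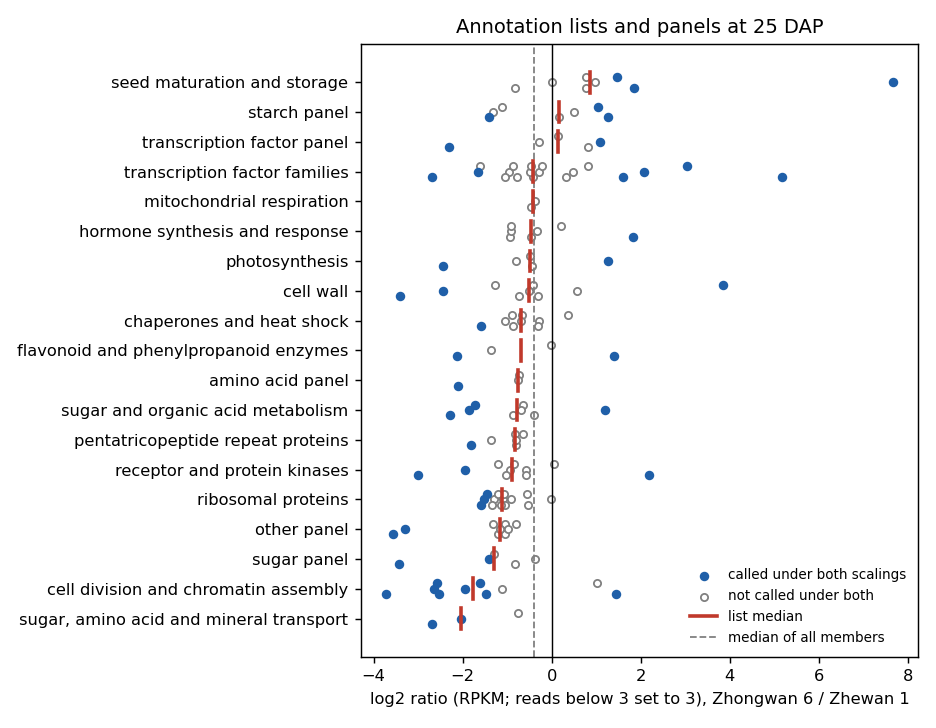
Log2 ratio of Zhongwan 6 to Zhewan 1 (x axis, RPKM, with fewer than 3 reads set to 3) for each member of the annotation lists and study panels (rows). The disease resistance list, with 1 member, is not drawn. Filled points were called under both scalings, red bars are list medians, and the dashed line is the median of all members (-0.39). Of the lists drawn, seed maturation and storage has the highest median, and the cell division and transport lists have the lowest. Only 1 of the 3 transport members had at least 50 reads in both libraries.

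Seed maturation and storage genes were the one annotation list with a median above 0. The 8 members had a median log2 ratio of 0.87, with 3 higher and 0 lower in Zhongwan 6 on RPKM and 6 higher and 0 lower after median-ratio scaling. Their summed RPKM was 502.4 in Zhongwan 6 and 273.6 in Zhewan 1. Of the 8, 6 had 50 reads in both libraries, with a median of 0.77. The Kunitz inhibitor and lipoxygenase 1 reached 50 reads in Zhongwan 6 alone, so that the minimum itself favours a difference. With no minimum the median was 0.87. Oleosin, which coats oil bodies, had 440 reads in Zhongwan 6 and 96 in Zhewan 1 (comp11102_c0_seq1, ratio 3.61, 2.89 to 4.55). A Kunitz family trypsin and protease inhibitor (comp12822_c0_seq1), of a family that accumulates in legume seeds, had 777 reads in Zhongwan 6 and 0 in Zhewan 1. Against a floor of 3 reads its log2 ratio was at least 7.67.

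The remaining maturation genes differed less. Lipoxygenase 1 (comp12189_c0_seq1) had 53 reads in Zhongwan 6 and 15 in Zhewan 1. The unknown seed protein like 1 unigene (comp12618_c0_seq1) had 323.8 RPKM in Zhongwan 6 against 165.4 RPKM in Zhewan 1, just under 2-fold. Both sequences of the desiccation-induced gene comp12845_c0 stood at 0.76 and 0.78 on the log2 scale. Caleosin (comp13486_c0_seq1) was level, with 16.2 RPKM in Zhongwan 6 against 16.04 RPKM in Zhewan 1, and a cupin (comp13522_c0_seq1) stood at -0.82, so the list did not move as one.

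The rest of the 12 annotated unigenes with the highest ratios lay outside that list. The 12, which include oleosin and the Kunitz inhibitor, were taken among unigenes called under both scalings with at least 10 RPKM in the higher library, so that weakly expressed unigenes with larger ratios are not among them. Reticulan like protein B13 (comp13530_c0_seq2), of a family that shapes the endoplasmic reticulum, had 16101 reads in Zhongwan 6 and 87 in Zhewan 1. That is 251.2 RPKM in Zhongwan 6 against 1.72 RPKM in Zhewan 1, a ratio of 145.7 (118.0 to 182.0). A stress induced protein (comp13441_c0_seq1) had 111.0 RPKM in Zhongwan 6 against 8.21 RPKM in Zhewan 1, a ratio of 13.5 (12.01 to 15.3). An LEA hydroxyproline-rich glycoprotein (comp12737_c0_seq1) had 89.0 RPKM in Zhongwan 6 against 24.5 RPKM in Zhewan 1. In Zhongwan 6 these 3 had the highest RPKM of the 12.

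Enzymes were also among these 12. A UDP-glycosyltransferase (comp13091_c0_seq1), a class that attaches sugars to small molecules, had 2717 reads in Zhongwan 6 against 48 in Zhewan 1, or 44.6 times as much per counted read (33.5 to 60.6). An NAD(P)-binding Rossmann-fold protein (comp13041_c0_seq1) had 2665 reads in Zhongwan 6 and 137 in Zhewan 1. Tryptophan aminotransferase related 2 (comp11388_c0_seq1), of a family that acts in auxin synthesis, had 37.4 RPKM in Zhongwan 6 against 10.6 RPKM in Zhewan 1. It was the only one of 7 members of the hormone list to be called. Sulfiredoxin (comp13317_c0_seq2), which repairs oxidised peroxiredoxins, had 595 reads in Zhongwan 6 and 141 in Zhewan 1. The set also held a DUF300 protein (comp12777_c0_seq1) with 2630 reads in Zhongwan 6 and 68 in Zhewan 1.

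Most members of the cell division list were lower in Zhongwan 6. Of the 10 members of the cell division and chromatin list, 1 was higher and 8 were lower on RPKM, 2 higher and 7 lower after median-ratio scaling, and the median log2 ratio was -1.78. Their summed RPKM was 16.6 in Zhongwan 6 and 65.3 in Zhewan 1. A histone (comp13083_c0_seq1) had 22 reads in Zhongwan 6 and 227 in Zhewan 1, a log2 ratio of -3.71 (-4.42 to -3.08). Nucleosome assembly protein 1;2 (comp13528_c0_seq1), a histone chaperone, had 51 reads in Zhongwan 6 and 251 in Zhewan 1. Thymidine kinase (comp12551_c0_seq1), which supplies thymidylate for DNA synthesis, had 51 reads in Zhongwan 6 and 231 in Zhewan 1. The 1 member higher under both scalings was cyclin D3;1 (comp12259_c0_seq1), a G1 cyclin, with 135 reads in Zhongwan 6 and 39 in Zhewan 1. A further member was called higher after median-ratio scaling only. Counts in this list were low. Only 4 of its 10 members had 50 reads in both libraries, while 4 reached 50 reads in Zhewan 1 alone and 2 in Zhongwan 6 alone, so that the minimum itself favours a difference. Without a minimum the 24 listed unigenes had a median of -1.42.

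Ribosomal protein genes had a median log2 ratio of -1.12, with 10 of 14 members lower and 0 higher on RPKM. After median-ratio scaling 3 were lower, 0 were higher, the median was -0.73, and the members ran from -1.20 to 0.37. Their summed RPKM was 1301 in Zhongwan 6 and 2557 in Zhewan 1. The largest differences were those of an L22p/L17e protein (comp13266_c0_seq1, log2 ratio -1.59, -1.74 to -1.45) and an L6 protein (comp12226_c0_seq1, -1.51, -1.60 to -1.43). The ribosomal protein S27a and ubiquitin fusion (comp13084_c0_seq1) was level, with 242.0 RPKM in Zhongwan 6 against 245.1 RPKM in Zhewan 1.

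Photosynthesis genes, which mark green tissue, had calls in both directions. Of 5 members in the annotation list 1 was higher and 1 lower under each scaling, and the median was -0.49. After median-ratio scaling 1 of the 5 lay above 0. Their summed RPKM was 163.8 in Zhongwan 6 and 578.4 in Zhewan 1, most of it from the antenna gene named next. The photosystem II light harvesting complex gene 2.1 (comp13040_c0_seq1), which encodes an antenna protein, had 87.6 RPKM in Zhongwan 6 against 474.3 RPKM in Zhewan 1, a log2 ratio of -2.44 (-2.47 to -2.40). The chlorophyll a/b binding protein comp40423_c1_seq2, an antenna gene of the panel, had 85 reads in Zhongwan 6 and 794 in Zhewan 1, a log2 ratio of -3.57 that became -1.89 when its component was summed. Photosystem I subunit H2 (comp12625_c0_seq1) stood at -0.49 and was not called. Photosystem II reaction center protein A (comp12834_c0_seq1), which is plastid encoded, was higher, with 241 reads in Zhongwan 6 and 79 in Zhewan 1. Poly(A) selection was used for these libraries, and its part in a plastid transcript was not tested.

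The 12 annotated unigenes with the lowest ratios, by the same rule of at least 10 RPKM in the higher library, came from several pathways. A thioredoxin family protein (comp12150_c0_seq1) was the most abundant of them, with 178.0 RPKM in Zhongwan 6 against 1035 RPKM in Zhewan 1, a log2 ratio of -2.54 (-2.57 to -2.51). Uroporphyrinogen-III synthase (comp12649_c0_seq1), an enzyme of heme and chlorophyll synthesis, had 12 reads in Zhongwan 6 and 511 in Zhewan 1, a log2 ratio of -5.76 (-6.72 to -4.94). Fatty acid desaturase 2 (comp12722_c0_seq1), which makes linoleate in Arabidopsis, had 195 reads in Zhongwan 6 and 1427 in Zhewan 1. The thiazole biosynthetic enzyme THI1 (comp12347_c0_seq1), of thiamin synthesis, had 449 reads in Zhongwan 6 and 1713 in Zhewan 1. A hypoxia-responsive protein (comp12644_c0_seq1) had 181 reads in Zhongwan 6 and 749 in Zhewan 1.

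Of the 5 sugar metabolism unigenes of the study's panel, 0 were higher and 3 lower on RPKM, and 2 were lower after median-ratio scaling. The study describes the unigenes of its qRT-PCR comparison both as randomly selected and as differentially expressed during seed development. The panel unigenes are therefore not taken as independent evidence of a direction. Sucrose synthase (comp38328_c0_seq2), which splits the sucrose arriving from the mother plant, had 60.9 RPKM in Zhongwan 6 against 654.3 RPKM in Zhewan 1, a log2 ratio of -3.43 (-3.45 to -3.40). Its component summed to -3.39. Fructose-bisphosphate aldolase (comp36369_c1_seq2) had 272.5 RPKM in Zhongwan 6 against 722.5 RPKM in Zhewan 1, and under TMM its log2 ratio of -0.97 was not called. The UTP-glucose-1-phosphate uridylyltransferase (comp37981_c0_seq1), at -1.28, was called on RPKM only. Phosphoglucomutase (comp37100_c1_seq1) was within 2-fold, with a log2 ratio of -0.38 that lay at 0.00 after median-ratio scaling.

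Starch unigenes of the panel went both ways. Of 7, 2 were higher and 3 lower on RPKM, and 2 were higher and 1 lower after median-ratio scaling. Starch branching enzyme II (comp39207_c0_seq1), which adds branch points to amylopectin, had 81.5 RPKM in Zhongwan 6 against 34.1 RPKM in Zhewan 1, a ratio of 2.39 (2.32 to 2.46). The ADP-glucose pyrophosphorylase comp40170_c0_seq1, which makes the glucose donor of starch synthesis, was opposite in direction to a second unigene of that enzyme, the large subunit 2 comp40857_c0_seq14. The first had 119.7 RPKM in Zhongwan 6 against 318.0 RPKM in Zhewan 1 and the second 50.5 in Zhongwan 6 and 24.4 in Zhewan 1. Under TMM the first had a log2 ratio of -0.98 and was not called. The second comes from a component of 10 sequences whose sum had a log2 ratio of 0.57, under 2-fold, against 1.05 for the unigene. Granule-bound starch synthase 1 (comp40911_c0_seq4), which makes amylose, was the most abundant of the panel, with 2165 RPKM in Zhongwan 6 against 1533 RPKM in Zhewan 1, a ratio of 1.41 (1.40 to 1.43). Of the debranching enzymes, isoamylase 1 (comp36013_c0_seq1, -1.11) was called lower on RPKM only, and pullulanase 1 (comp39788_c0_seq83, 0.16) was called under neither scaling. The remaining starch unigene of the 7 was also called lower on RPKM only.

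Among the nitrogen genes, argininosuccinate synthase (comp30932_c0_seq2), of arginine synthesis, had 271.8 RPKM in Zhongwan 6 against 1164 RPKM in Zhewan 1, a log2 ratio of -2.10 (-2.12 to -2.08). Both glutamate synthase unigenes (comp40537_c0_seq17 and comp40590_c1_seq19) stood at -0.74 and -0.75 and were not called. The 9 remaining panel unigenes outside metabolism and transcription factors held 0 higher and 7 lower on RPKM, and 2 lower after median-ratio scaling. One of the 2 was the 14-3-3-like protein GF14 iota-like (comp35806_c1_seq1), of a family that binds phosphorylated proteins, with 317 reads in Zhongwan 6 and 2457 in Zhewan 1. Across all 29 panel unigenes, 3 were higher and 7 lower under both scalings.

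The transcription factors were mixed as well. FUS3 (comp26137_c0_seq1), a B3 factor that promotes seed maturation in Arabidopsis, had 42.6 RPKM in Zhongwan 6 against 210.7 RPKM in Zhewan 1, a log2 ratio of -2.31 (-2.35 to -2.26). A GRAS factor of the panel (comp21944_c0_seq2) was higher, with 6.498 RPKM in Zhongwan 6 against 3.05 RPKM in Zhewan 1. The panel's MYB unigene (comp27361_c0_seq1) had an interval of the log2 ratio of -0.01 to 0.28 and was not called. Of 19 members of transcription factor families by annotation, 4 were higher and 4 lower on RPKM, 5 higher and 2 lower after median-ratio scaling, and their median of -0.41 was close to that of all members. MYB domain protein 61 (comp12477_c0_seq1) had 112 reads in Zhongwan 6 and 565 in Zhewan 1. A MYB 3R-5 unigene (comp13165_c0_seq1), of the class that controls cell cycle genes in Arabidopsis, had 80 reads in Zhongwan 6 and 15 in Zhewan 1. A bHLH unigene (comp12270_c0_seq1) had 137 reads in Zhongwan 6 and 0 in Zhewan 1.

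The remaining lists had few members, and their medians lay below 0, as did that of all members (-0.39). Of all members 29.1% were called on RPKM and 24.3% after median-ratio scaling. Chaperones had 9 members, a median of -0.68, and 0 higher and 2 lower on RPKM, 1 lower after scaling. The HSP90-type chaperone annotated htpG (comp12506_c0_seq1) was the one called under both scalings, with 44.4 RPKM in Zhongwan 6 against 133.2 RPKM in Zhewan 1. Sugar and organic acid metabolism by annotation had 8 members, a median of -0.77, and 1 higher and 3 lower under each scaling. Enolase (comp12903_c0_seq1), a glycolytic enzyme, had 168 reads in Zhongwan 6 and 438 in Zhewan 1. Cell wall genes had 9 members with a median of -0.51, with 1 higher and 3 lower on RPKM and 1 higher and 2 lower after median-ratio scaling. Flavonoid and phenylpropanoid enzymes, which include genes of the seed coat, had 4 members with a median of -0.69, with 1 higher and 2 lower on RPKM and 1 higher and 1 lower after scaling. In that list the 4-coumarate:CoA ligase 2 unigene (comp12472_c0_seq1) had 156 reads in Zhongwan 6 and 540 in Zhewan 1. Protein kinases had 10 members with a median of -0.89, with 1 higher and 4 lower on RPKM and 1 higher and 2 lower after scaling. Pentatricopeptide repeat proteins had 6 members with a median of -0.82, with 2 lower on RPKM and 1 after scaling, and 0 higher. The 3 transport genes had a median of -2.03, with 0 higher and 2 lower under each scaling. Only 1 of them had 50 reads in both libraries, at -0.76, and with no minimum 10 listed transport unigenes had a median of 0.23. The 2 mitochondrial genes had a median of -0.42 with no call. The one disease resistance protein among the members (comp11275_c0_seq1) was lower, with 13 reads in Zhongwan 6 and 72 in Zhewan 1.

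Some unigenes had all or nearly all of their 25 DAP reads in a single library. Of the 32351 members, 500 had at least 50 reads in Zhongwan 6 and 3 or fewer in Zhewan 1, with 395 at exactly 0. Another 522 of the 32351 had at least 50 reads in Zhewan 1 and 3 or fewer in Zhongwan 6, with 402 at 0. Most had few reads, with a median of 124 reads in the Zhongwan 6 set and 122 in the Zhewan 1 set. The most read were comp23395_c0_seq1 (309 bp), with 3507 reads in Zhongwan 6 and 0 in Zhewan 1, and comp29471_c0_seq2 (1367 bp), with 0 reads in Zhongwan 6 and 2662 in Zhewan 1. Against the floor of 3 reads per library their log2 ratios were at least 9.85 and at most -10.14. In 25.2% of the Zhongwan 6 set and 26.8% of the Zhewan 1 set, another sequence of the same component had at least 50 reads in the library where the first had 3 or fewer.

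Few of these kept the pattern at the earlier stage. Of the Zhongwan 6 set 199 had at least 50 reads in Zhongwan 6 at 10 DAP, and 1 of these had 3 or fewer in Zhewan 1 at that stage. Of the Zhewan 1 set 138 had at least 50 reads in Zhewan 1 at 10 DAP, and 1 had 3 or fewer in Zhongwan 6. An example is comp40585_c0_seq2 (1940 bp), with 2 reads in Zhongwan 6 and 1580 in Zhewan 1 at 25 DAP but 3134 reads in Zhongwan 6 and 2610 in Zhewan 1 at 10 DAP. The sequence was thus found in both cultivars.

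The largest ratios with reads on both sides came from comp36631_c1, which has no annotation here. Its 6 members had log2 ratios from 8.31 to 11.59, with 166660 reads in Zhongwan 6 and 304 in Zhewan 1 in all. At 10 DAP its sequence comp36631_c1_seq6 had 36463 reads in Zhongwan 6 and 144944 in Zhewan 1, so that the low count in Zhewan 1 belonged to the later stage.

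A component can hold sequences that differ in opposite directions. Of the 5314 components with at least 2 members, 1399 had a call under both scalings, and 79 of these (5.65%) held calls in both directions. When the reads of each of the 79 were summed, 60 fell within 2-fold. In comp40919_c0, for example, comp40919_c0_seq15 (3497 bp) had 6191 reads in Zhongwan 6 and 513 in Zhewan 1. Its sequence comp40919_c0_seq22 (1622 bp) had 173 reads in Zhongwan 6 and 2324 in Zhewan 1. The sum over the component was 51423 reads in Zhongwan 6 and 36420 in Zhewan 1, a log2 ratio of 0.15. In comp40614_c1, by contrast, comp40614_c1_seq9 (565 bp) had 50943 reads in Zhongwan 6 and 8094 in Zhewan 1 and set the sum at 1.85, while its other 3 members were lower in Zhongwan 6. Where the reads of a gene were divided among assembled sequences, the ratio of a unigene is uncertain.

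The cultivar difference at 25 DAP was set beside that at 10 DAP, which uses no library in common. Of the members higher in Zhongwan 6 at 25 DAP, 2237 had at least 50 reads in a 10 DAP library. After median-ratio scaling 831 of these (37.1%) were called lower in Zhongwan 6 at 10 DAP and 98 (4.38%) higher. Among the members not called under both scalings at 25 DAP, 6.14% were lower and 6.63% higher at 10 DAP, and over all unigenes 5.36% were lower and 5.02% higher. On RPKM as deposited 554 (24.8%) were lower and 224 (10.0%) higher, where 2.84% of the uncalled members were lower and 16.6% higher, and 3.07% of all unigenes were lower and 10.4% higher. Of the members lower at 25 DAP, 2276 had enough reads. Of these, 437 (19.2%) were higher and 270 (11.9%) lower at 10 DAP after scaling, and on RPKM 710 (31.2%) were higher and 179 (7.86%) lower.

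**Figure D5:**
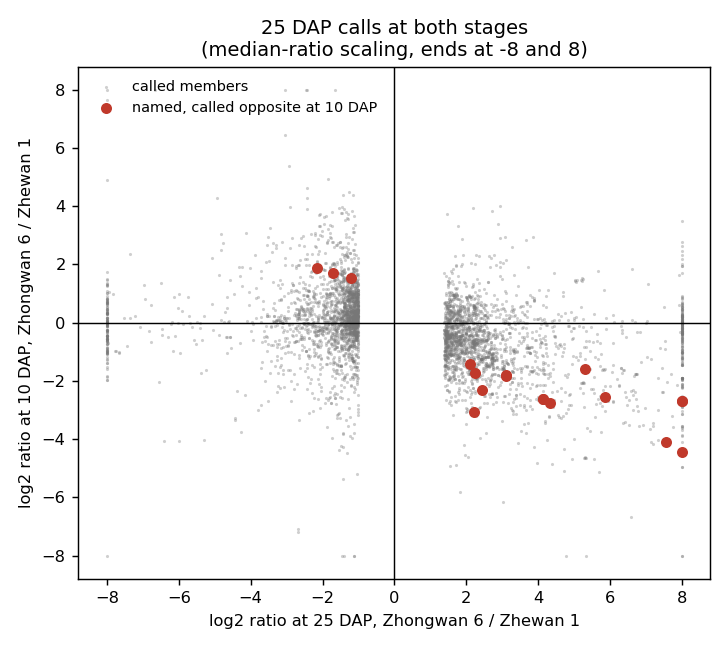
Log2 ratio of Zhongwan 6 to Zhewan 1 at 10 DAP (y axis) against that at 25 DAP (x axis), both after median-ratio scaling and drawn at -8 or 8 where beyond, for members called under both scalings at 25 DAP with at least 50 reads at 10 DAP (grey). Red points are the 18 named unigenes called in opposite directions at the stages. The empty band in the middle is set by the 2-fold threshold, and most points on the right lie below 0.

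The opposite order was seen in most of the annotated unigenes with the highest ratios, 10 of 12 being lower in Zhongwan 6 at 10 DAP. Of the 12 with the lowest ratios, chosen by the same rule, 5 were higher and 5 lower in Zhongwan 6 at 10 DAP and 2 had 0 reads in both libraries, with few reads in several of the others. Reticulan like protein B13 (comp13530_c0_seq2) had 43.2 RPKM in Zhongwan 6 against 551.2 RPKM in Zhewan 1 at 10 DAP, the reverse of its order at 25 DAP. The LEA glycoprotein comp12737_c0_seq1 had 25.5 RPKM in Zhongwan 6 against 64.2 RPKM in Zhewan 1 at 10 DAP. The stress induced protein comp13441_c0_seq1 had 239.3 RPKM in Zhongwan 6 against 456.9 RPKM in Zhewan 1 at 10 DAP, above the levels of both cultivars at 25 DAP. Summed over the 8 seed maturation and storage members, RPKM at 10 DAP was 225.6 in Zhongwan 6 and 348.2 in Zhewan 1. As a sum these maturation transcripts were therefore already abundant in the libraries labelled 10 DAP. In Zhewan 1 the sum was higher there than at 25 DAP. At 25 DAP most of the sum came from the unknown seed protein like 1 unigene (comp12618_c0_seq1), so it need not describe each member.

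Oleosin (comp11102_c0_seq1) was an exception in cultivar order, with 22.7 RPKM in Zhongwan 6 against 14.2 RPKM in Zhewan 1 at 10 DAP. Caleosin (comp13486_c0_seq1), level at 25 DAP, had 9.24 RPKM in Zhongwan 6 against 35.7 RPKM in Zhewan 1 at 10 DAP. The ribosomal list summed to 908.9 RPKM in Zhongwan 6 against 701.5 RPKM in Zhewan 1 at 10 DAP, a log2 ratio of 0.37 where the median of all unigenes with 50 reads in both was 0.41. FUS3 (comp26137_c0_seq1) had 19.8 RPKM in Zhongwan 6 against 9.47 RPKM in Zhewan 1 at 10 DAP, and argininosuccinate synthase (comp30932_c0_seq2) had 8.23 in Zhongwan 6 and 1.90 in Zhewan 1. The GRAS factor comp21944_c0_seq2 kept its order, with 36.4 RPKM in Zhongwan 6 against 11.6 RPKM in Zhewan 1 at 10 DAP.

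Across the 32351 members the rank correlation of reads at 25 DAP between the cultivars was 0.85. Zhongwan 6 at 25 DAP correlated at 0.78 with Zhongwan 6 at 10 DAP and 0.81 with Zhewan 1 at 10 DAP. Zhewan 1 at 25 DAP correlated at 0.71 with Zhongwan 6 at 10 DAP and 0.70 with Zhewan 1 at 10 DAP. These values are descriptions across unigenes that share reads, lengths and the choice of members, and unigenes are not independent. Over the 35529 unigenes with 50 reads in any library, Zhongwan 6 at 25 DAP correlated at 0.74 with Zhongwan 6 and 0.79 with Zhewan 1 at 10 DAP, and Zhewan 1 at 25 DAP at 0.68 and 0.69. Whether the seeds labelled 25 DAP were at the same point of development in both cultivars was not tested, and stage of ripening and cultivar cannot be told apart in these libraries.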

How the data were processed

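RNA-Seq libraries of seeds of both cultivars at 25 DAP were compared, with the 10 DAP libraries used as context. The authors assembled all reads with Trinity, mapped them to the unigenes with Bowtie 0.12.8 and deposited read counts per unigene. The authors also deposited RPKM, the count divided by unigene length and counted total. Recomputed RPKM differed by over 1% in 1 of 154538 entries.

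Counts entered two-sided Fisher's exact tests against all other counted reads, with Benjamini-Hochberg adjustment over unigenes with at least 1 read. Calls needed an FDR of 0.001 and a 2-fold RPKM ratio. Scripts were tested on simulated data. Alternatives were TMM and other scalings, other minimums, a 4-fold threshold, a pseudocount of 1 RPKM, component sums and edgeR's likelihood ratio test. The members and lists were chosen with earlier results of these data known. Named unigenes were the study's panel, the called extremes of each list and, with at least 10 RPKM in the higher library, of all annotated members, the most abundant unigenes, the extreme ratios and the largest components with opposite calls. The unigenes comp11275_c0_seq1, comp12189_c0_seq1, comp12259_c0_seq1, comp12270_c0_seq1, comp12551_c0_seq1, comp12618_c0_seq1, comp12625_c0_seq1, comp12845_c0, comp13084_c0_seq1, comp13165_c0_seq1, comp13486_c0_seq1 and comp13522_c0_seq1 were named after their values were seen. Names came from part of a supplementary annotation, and 0 identifiers match the pea gene table. Tests and counts were run in Python 3.11.15 with SciPy 1.17.1 and NumPy 2.4.6, tables used pandas 2.3.3, plots used matplotlib 3.10.9, and edgeR 4.0.16 ran in R 4.3.3.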

Additional observations from a re-analysis of the deposited data

Results flagged for a closer look

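The cultivar ratio at 25 DAP and that at 10 DAP went in opposite directions for 18 of the 89 named unigenes, each called at both stages and under both scalings. With 1 library per cultivar and stage the difference between the stages was not tested. Of the 2846 members higher in Zhongwan 6 at 25 DAP, 585 were called opposite and 103 the same at 10 DAP under both scalings. Of the 3637 lower members, 454 were opposite and 219 the same. Named unigenes were chosen partly for extreme 25 DAP ratios, and comp36631_c1, comp40974_c0 and comp37913_c0 each enter with more than 1 sequence. The values are log2 ratios of Zhongwan 6 to Zhewan 1 on RPKM, first at 25 DAP and then at 10 DAP, with fewer than 3 reads set to 3.

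In 15 of them Zhongwan 6 was higher at 25 DAP and lower at 10 DAP. The sequences of comp36631_c1 had 11.59 and -2.29 (comp36631_c1_seq1) and 9.94 and -2.27 (comp36631_c1_seq6). The Kunitz inhibitor comp12822_c0_seq1 had at least 7.67, then -4.04. Reticulan like protein B13 had 7.19 and -3.67, the UDP-glycosyltransferase comp13091_c0_seq1 had 5.48 and -2.14, and the DUF300 protein comp12777_c0_seq1 had 4.93 and -1.18. The Rossmann-fold protein comp13041_c0_seq1 had 3.94 and -2.33. Among the most abundant unigenes, comp40974_c0_seq9 had 3.74 and -2.20, comp40974_c0_seq10 had 3.74 and -2.19, comp37913_c0_seq4 had 2.72 and -1.41, and comp37913_c0_seq10 had 2.71 and -1.38. The CBS domain protein comp13073_c0_seq2 had 2.06 and -1.89. The LEA glycoprotein comp12737_c0_seq1 had 1.86 and -1.33, tryptophan aminotransferase related 2 (comp11388_c0_seq1) had 1.82 and -2.67, and the aldolase-type TIM barrel protein comp13285_c0_seq1 had 1.73 and -1.0045.

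The other 3 were lower in Zhongwan 6 at 25 DAP and higher at 10 DAP. The thioredoxin comp12150_c0_seq1 had -2.54 and 2.28, argininosuccinate synthase (comp30932_c0_seq2) had -2.10 and 2.11, and the htpG chaperone comp12506_c0_seq1 had -1.58 and 1.93.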

How the results depend on the processing

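No paired analysis was possible because each cultivar has 1 library per stage. On RPKM 9402 members were called, 2846 higher and 6556 lower in Zhongwan 6. Scaling moved the direction: the calls lower were 3637 with median-ratio scaling, 3429 with TMM (4456 higher) and 4247 with totals without the 100 most abundant unigenes. The share of calls higher was 53.8%, 56.5% and 47.1% in the same order, and the median of all members was -0.0057, 0.040 and -0.11. A minimum of 200 reads left 5783 calls (1783 higher, 4000 lower), and 50 reads in both libraries left 5898 (1409 higher, 23.9%). The share higher was 28.6% with a minimum of 1 RPKM and 28.6% with no minimum. Component sums gave 5888 called components (1663 higher, 4225 lower, 28.2% higher). A 4-fold threshold gave 3473 calls (1501 higher, 1972 lower, 43.2% higher). With a pseudocount of 1 RPKM 5572 were called, 3642 of them lower, the share higher was 34.6%, and the median was -0.29.

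The number of calls was decided most by what variation between libraries was assumed. The edgeR likelihood ratio test gave 3907 calls at a coefficient of variation of 0.2 (1650 higher, 2257 lower, 42.2% higher) and 1369 at 0.4 (688 higher, 681 lower, 50.3% higher). These libraries do not show which value holds.

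List medians changed sign for the transcription factor families (0.018) and mitochondrial genes (0.0089) under TMM, and for transport (0.23) and flavonoid enzymes (0.075) with no minimum. Of 89 named unigenes 3 changed sign. The panel's bHLH unigene comp30742_c0_seq1 was at 0.11 with median-ratio scaling, 0.15 with TMM and 0.0081 without the 100 most abundant. Phosphoglucomutase was at 0.0033 and 0.049 under the first 2 of these. Component sums moved comp39376_c0_seq1 to 2.67. Of the 75 named unigenes called on RPKM, 64 were called the same way with median-ratio scaling (11 lost, 1 other gained) and 61 with TMM (14 lost, 1 other gained). A pseudocount of 1 RPKM left photosystem II reaction center protein A at 0.80 and the GRAS factor at 0.89, under 2-fold.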
